A study of Sus scrofa with 60 samples.

Results

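The genes described here are 10 chemokines measured in liver by RNA-Seq: CXCL8, CXCL2, CXCL9, CXCL10, CXCL14, CXCL16, CCL2, CCL5, CCL19, and CCL20. They are the 10 rows of the deposited count table that carry these gene names, of 30335 named features in all, and all 10 passed the filter on low counts. Livers came from newborn pigs of mixed Landrace and Hampshire sows, delivered by cesarean section shortly before term and randomized at birth. In bile duct ligation (BDL) the cystic and common bile ducts were tied, which blocks bile flow, and in sham surgery the abdomen was opened and the liver handled without ligation. Every pig received a jugular catheter and parenteral nutrition (PN) on its first day. Enteral (ENT) pigs were then weaned from PN step by step onto a milk replacer formula. Full formula feeding was reached by the end of the first week. The other pigs stayed on PN with either a soy lipid emulsion (SLE, Intralipid) or a mixed lipid emulsion (MLE, SMOFlipid). Tissue was taken on day 14. The sham groups held 12 ENT, 10 SLE, and 9 MLE pigs, and the BDL groups 10 ENT, 11 SLE, and 8 MLE pigs. ENT and PN pigs differ in the route of feeding as well as in lipid, which cannot be told apart in a comparison of ENT with SLE or MLE.

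Chemokines are small secreted proteins that bind receptors on leukocytes and direct their movement into tissue. CXCL8 and CXCL2 attract neutrophils through CXCR2, CCL2 attracts monocytes through CCR2, and CCL20 attracts cells that carry CCR6. CXCL9 and CXCL10 are interferon-induced ligands of CXCR3 on T cells, CXCL16 acts through CXCR6, and CCL19 through CCR7. CCL5 attracts T cells. CXCL14 is made by many epithelia in the resting state. In cholestatic liver, hepatocytes, bile duct epithelium, stellate cells, and resident macrophages can all be sources of such chemokines.

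Libraries held 14469788 to 21374161 counted reads (median 17254606), and 16210 genes were tested. The library labelled ENT-sham replicate 2 was nearly alike in its counts to ENT-BDL replicate 1, with a chi-square per degree of freedom of 1.91 between them, against 16.1 for the next closest of 1770 pairs. A wrong label on one of them and a repeat of one liver cannot be told apart here, so the 12 ENT-sham and 10 ENT-BDL pigs may hold 1 animal fewer or 1 in the wrong group. Both were kept under their labels, and values without them are given beside the ENT results of the chemokines. A single pig identifier stands in the titles of both SLE-sham replicate 9 and SLE-sham replicate 10. They were kept as separate pigs, and leaving out either changed none of the calls for the 10 genes, with CXCL8 in SLE at 1.95 (adjusted p = 0.0477) without replicate 9 and 1.99 (adjusted p = 0.0423) without replicate 10. Hepatocyte transcripts were high in every library: the summed level of 8 markers such as ALB, with 1 gene model for each, was 68936 to 148626 CPM over all pigs. CPM is the read count scaled to the size of its library.

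The gene models of CXCL8, CXCL2, CXCL9, and CXCL10 lie on chromosome 8 of Sscrofa11.1, at 69932646-69935861, 70157253-70159145, 71665541-71670236, and 71693641-71695948. CCL5, CCL2, and CXCL16 lie on chromosome 12 at 39652731-39659121, 40798109-40800013, and 52145100-52150267. CXCL14 is on chromosome 2 at 137803988-137813118, CCL19 on chromosome 10 at 32110366-32112529, and CCL20 on chromosome 15 at 129172743-129176069. The deposited gene lengths ran from 303 bases for CCL19 to 1719 bases for CXCL14. A similar gene, LOC100525396, which the annotation calls a growth-regulated protein homolog, lies near CXCL2 at 70054796-70057033, so the split of reads between them is uncertain.

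Compared per length of gene model, CXCL16 and CXCL10 had the highest levels of the 10 in every group and CXCL2 the lowest. In ENT-sham livers the median was 36.3 CPM per kilobase for CXCL16 and 26.5 for CXCL10, against 0.150 for CXCL2, 0.204 for CCL20, and 0.578 for CXCL8. CXCL8 ranked 8 of 10 in all 3 sham groups. After BDL its median ranked 3 in ENT pigs at 23.3 CPM per kilobase, 6 in MLE pigs at 8.40, and 7 in SLE pigs at 7.92. In SLE-BDL livers CXCL14 held rank 3 instead, at 19.8 CPM per kilobase. CXCL8 made up 0.578% of the summed medians of the 10 genes in ENT-sham and 11.6% in ENT-BDL, 1.12% in SLE-sham and 4.23% in SLE-BDL, and 0.687% in MLE-sham and 5.41% in MLE-BDL.

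**Figure D1:**
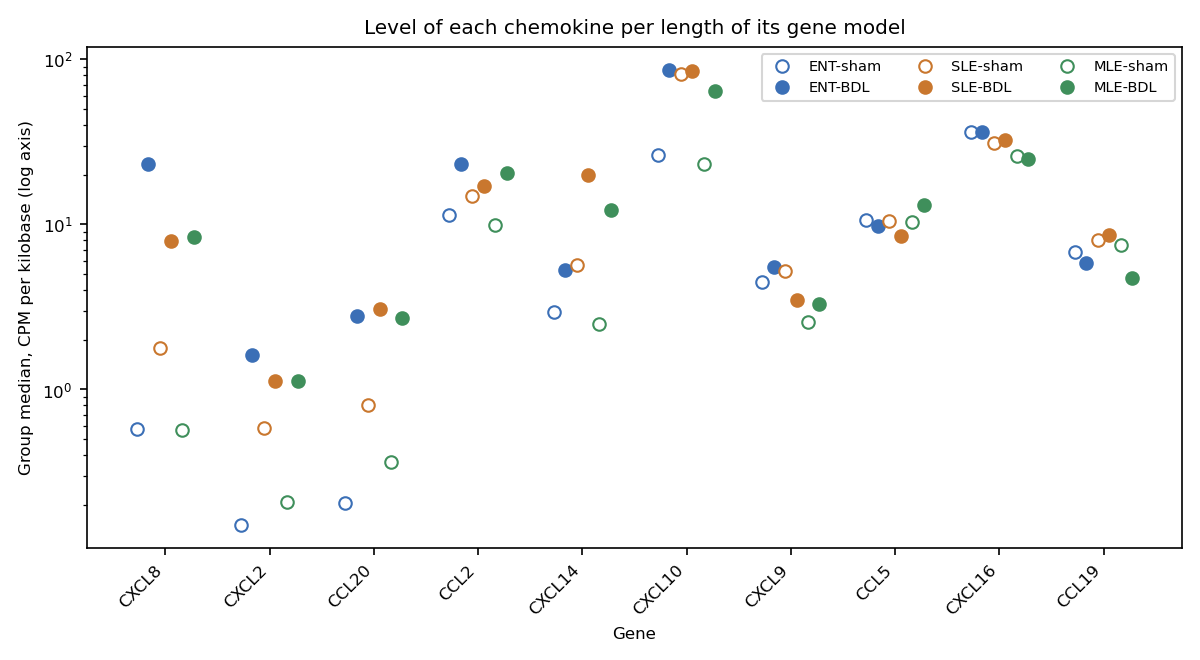
Median level of each chemokine in each group, in CPM per kilobase of the deposited gene length on a log axis (open circles, sham; filled circles, BDL; blue ENT, orange SLE, green MLE). CXCL8, CXCL2, and CCL20 sit lowest in sham livers, and CXCL8 in ENT-BDL stands at 23.3 CPM per kilobase.

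After BDL the neutrophil attractant CXCL8 was called higher on all 3 diets, CXCL2 and CCL20 in ENT and MLE pigs, CXCL14 in SLE and MLE pigs, and CCL2 in MLE pigs. CXCL9, CXCL10, CXCL16, and CCL5 did not pass the test on any diet. A gene was called at an adjusted p under 0.05 (edgeR quasi-likelihood test, adjusted over all 16210 genes) with a fold change above 2. On this rule 3 of the 10 genes rose in ENT pigs (CXCL8, CCL20, and CXCL2), where 3.41% of all tested genes were called. Without ENT-sham replicate 2 there were 5, with CXCL14 (1.06, adjusted p = 0.0168) and CCL2 (1.09, adjusted p = 0.000902) called as well, and 4.95% of all genes. There were also 5 without both matching libraries (4.48% of all genes). In SLE pigs 2 of 10 rose (CXCL8 and CXCL14), with 1.47% of all genes called, and 3 without both matching ENT libraries, where CXCL2 was added and 1.65% of all genes were called. In MLE pigs 5 rose (CXCL8, CCL20, CXCL14, CXCL2, and CCL2) and CCL19 fell, with 3.73% of all genes called. At any fold change, 5 of 10 passed in ENT (17.4% of all genes), 2 in SLE (4.54%), and 6 in MLE (14.4%). The median log2 fold change of the 10 genes was 0.93 in ENT, 0.34 in SLE, and 1.02 in MLE, beside 0.0041, -5.64e-05, and -0.012 over all tested genes. In bulk tissue, a change in the number of cells that make a transcript and a change in the transcript per cell cannot be told apart.

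**Figure D2:**
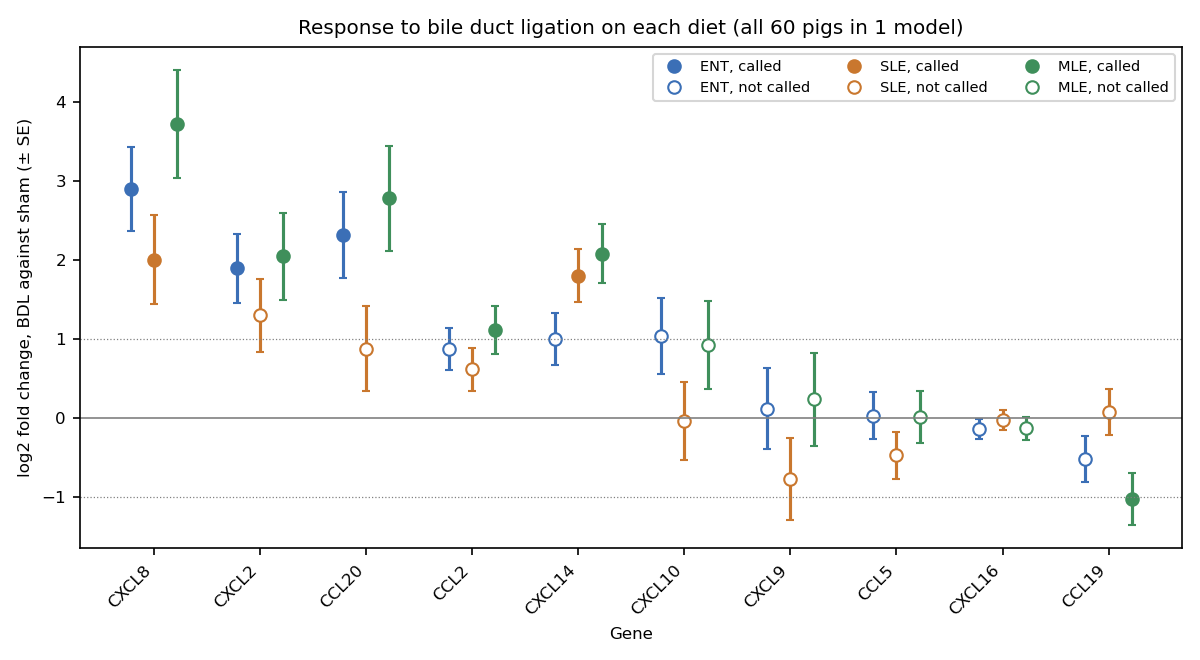
Log2 fold change of BDL against sham with its SE for each chemokine on each diet (blue ENT, orange SLE, green MLE; filled, called; open, not called; dotted lines, a fold change of 2). CXCL8 is called on all 3 diets, CXCL14 on SLE and MLE, and CXCL9, CXCL10, CCL5, and CXCL16 on none.

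CXCL8, the main neutrophil attractant of this set, had the largest BDL response of the 10 on each diet. In ENT-sham pigs it ran from 0.247 CPM through a median of 0.859 to 45.3 CPM, and in ENT-BDL pigs from 16.2 through 34.6 to 65.2 CPM. The 45.3 CPM belonged to ENT-sham replicate 2, whose near match ENT-BDL replicate 1 had 42.5 CPM. The other 11 ENT-sham pigs lay between 0.247 and 1.39 CPM, all below every ENT-BDL pig. The log2 fold change was 2.89 (SE 0.53, adjusted p = 7.05e-05), and it was 5.36 without ENT-sham replicate 2 (adjusted p = 2.86e-19) and 5.32 without both matching libraries (adjusted p = 1.23e-18).

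On PN, CXCL8 ran from 1.09 through 2.65 to 5.61 CPM in SLE-sham pigs and from 3.90 through 11.8 to 22.9 CPM in SLE-BDL pigs. These groups overlapped, with 8 of 11 SLE-BDL pigs above every SLE-sham pig. The log2 fold change was 1.999 (SE 0.56, adjusted p = 0.0288), and the call was lost without SLE-BDL replicate 9 or without SLE-sham replicate 2. Over the 21 fits that left out 1 pig of these groups, the log2 fold change ran from 1.87 to 2.15 and the adjusted p reached 0.0578. In MLE-sham pigs CXCL8 ran from 0.300 through 0.850 to 2.14 CPM, and in MLE-BDL pigs from 8.43 through 12.5 to 20.3 CPM. All 8 MLE-BDL pigs lay above all 9 MLE-sham pigs, with a log2 fold change of 3.72 (SE 0.69, adjusted p = 0.000107).

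Ordered by mean log2 CPM, CXCL8 was highest in ENT-BDL (5.05 ± 0.56, SD, n = 10), followed by MLE-BDL (3.70 ± 0.41, n = 8), SLE-BDL (3.37 ± 0.90, n = 11), SLE-sham (1.48 ± 0.72, n = 10), ENT-sham (0.32 ± 1.72, n = 12), and MLE-sham (-0.0081 ± 0.79, n = 9). ENT-BDL stood apart from MLE-BDL by more than 1 SD of each group, as did SLE-BDL from SLE-sham, whereas the other neighbours in this order overlapped. The place and SD of ENT-sham rested on replicate 2. Without both matching libraries ENT-sham was at -0.15 ± 0.58 (n = 11), below MLE-sham, and SLE-sham, MLE-sham, and ENT-sham then overlapped in that order. For the other 9 chemokines, every pair of neighbouring groups overlapped within 1 SD, with and without both matching libraries. The share of all tested genes that stand apart in this way was not counted, so CXCL8 is not shown to be unusual in this.

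CXCL2, a second ligand of CXCR2, was the least abundant of the 10. It ran from 0 through 0.162 to 2.26 CPM in ENT-sham pigs, of which 7 of 12 had 3 counts or fewer, and from 0.385 through 1.74 to 2.80 CPM in ENT-BDL pigs. The log2 fold change was 1.89 (SE 0.44, adjusted p = 0.00135), and 2.59 without both matching libraries (adjusted p = 7.34e-06). In SLE pigs it ran from 0.182 through 0.625 to 0.795 CPM after sham surgery and from 0.320 through 1.21 to 3.21 CPM after BDL. Of 11 SLE-BDL pigs, 8 lay above every SLE-sham pig, yet the log2 fold change of 1.29 (SE 0.46, adjusted p = 0.0911) did not pass. It did pass without both matching ENT libraries, at 1.296 (adjusted p = 0.0445), when only the SLE groups were fitted, at 1.299 (adjusted p = 0.0409), and with the number in the pig identifier as a block, at 1.66 (adjusted p = 0.0271). In MLE pigs CXCL2 ran from 0.0600 through 0.223 to 0.463 CPM after sham surgery and from 0.327 through 1.21 to 1.52 CPM after BDL. Here 7 of 8 MLE-BDL pigs lay above every sham pig, with a log2 fold change of 2.04 (SE 0.55, adjusted p = 0.0069).

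CCL20, the ligand of CCR6, was called higher after BDL on 2 diets, but no difference between the diets in its response passed. The SLE response less the ENT response was -1.44 (SE 0.76, adjusted p = 0.377), or -2.26 without ENT-sham replicate 2 (adjusted p = 0.0556). MLE less ENT was 0.47 (SE 0.84, adjusted p = 0.932), and MLE less SLE 1.90 (SE 0.84, adjusted p = 0.436). CCL20 had 3 counts or fewer in 7 of 12 ENT-sham, 4 of 9 MLE-sham, and 1 of 10 SLE-sham pigs. It ran from 0 through 0.168 to 3.28 CPM in ENT-sham pigs, where the highest was replicate 2, and from 1.13 through 2.30 to 6.72 CPM in ENT-BDL pigs. Without replicate 2 the highest ENT-sham pig had 1.13 CPM. The log2 fold change was 2.31 (SE 0.54, adjusted p = 0.00165), and 3.16 without both matching libraries (adjusted p = 2e-05). SLE-sham pigs spread widely, from 0.116 through 0.665 to 4.57 CPM, and overlapped the SLE-BDL pigs, which ran from 0.758 through 2.54 to 5.83 CPM. All 11 SLE-BDL pigs lay above the SLE-sham median but only 1 lay above every SLE-sham pig, and the log2 fold change of 0.87 (SE 0.54, adjusted p = 0.404) did not pass, nor did 1.76 with the identifier block (adjusted p = 0.0537). In MLE pigs CCL20 ran from 0.0672 through 0.300 to 0.973 CPM after sham surgery and from 0.511 through 2.23 to 6.12 CPM after BDL. This was a log2 fold change of 2.77 (SE 0.66, adjusted p = 0.00215), with 6 of 8 MLE-BDL pigs above every sham pig.

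CCL2, the monocyte attractant, had smaller differences. It ran from 3.00 through 8.49 to 25.2 CPM in ENT-sham pigs and from 9.82 through 17.3 to 25.3 CPM in ENT-BDL pigs. Every ENT-BDL pig was above the sham median, and the log2 fold change of 0.87 (SE 0.26, adjusted p = 0.0162) passed only without the fold threshold. Without ENT-sham replicate 2, which had the 25.2 CPM, it was 1.09 (adjusted p = 0.000902) and was called. In SLE pigs the range was 5.88 through 11.05 to 18.0 CPM after sham surgery and 10.1 through 12.7 to 29.0 CPM after BDL, with a log2 fold change of 0.61 (SE 0.27, adjusted p = 0.202) that did not pass. In MLE pigs it was 4.50 through 7.42 to 20.7 CPM after sham surgery and 12.6 through 15.2 to 33.1 CPM after BDL. The log2 fold change there was 1.11 (SE 0.30, adjusted p = 0.00786), and it fell to 0.97 and below the fold threshold without MLE-BDL replicate 3.

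CXCL14, the epithelial chemokine, rose with BDL on both PN diets. In SLE-sham pigs it ran from 3.94 through 9.76 to 17.3 CPM and in SLE-BDL pigs from 11.9 through 34.0 to 67.6 CPM. Of 11 SLE-BDL pigs, 9 lay above every SLE-sham pig, with a log2 fold change of 1.80 (SE 0.33, adjusted p = 0.000797). In MLE-sham pigs it ran from 2.94 through 4.26 to 13.1 CPM and in MLE-BDL pigs from 10.1 through 21.1 to 48.0 CPM. Here 7 of 8 MLE-BDL pigs lay above every sham pig, with a log2 fold change of 2.08 (SE 0.37, adjusted p = 7.09e-05).

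In ENT pigs CXCL14 ran from 1.97 through 5.07 to 10.9 CPM after sham surgery and from 5.88 through 9.06 to 29.9 CPM after BDL. Its fold change of 1.99 (log2 1.00, SE 0.32, adjusted p = 0.0253) fell just under the threshold of 2. Leaving out 1 pig moved the log2 fold change between 0.71 (without ENT-BDL replicate 2, adjusted p = 0.124) and 1.12 (without ENT-sham replicate 6). The gene was called in 12 of these 22 fits, those without ENT-BDL replicates 1, 3, 5, 7, 8, 9, or 10 or without ENT-sham replicates 2, 6, 7, 10, or 12. Without both matching libraries it was 1.12 (adjusted p = 0.0144) and was called.

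**Figure D3:**
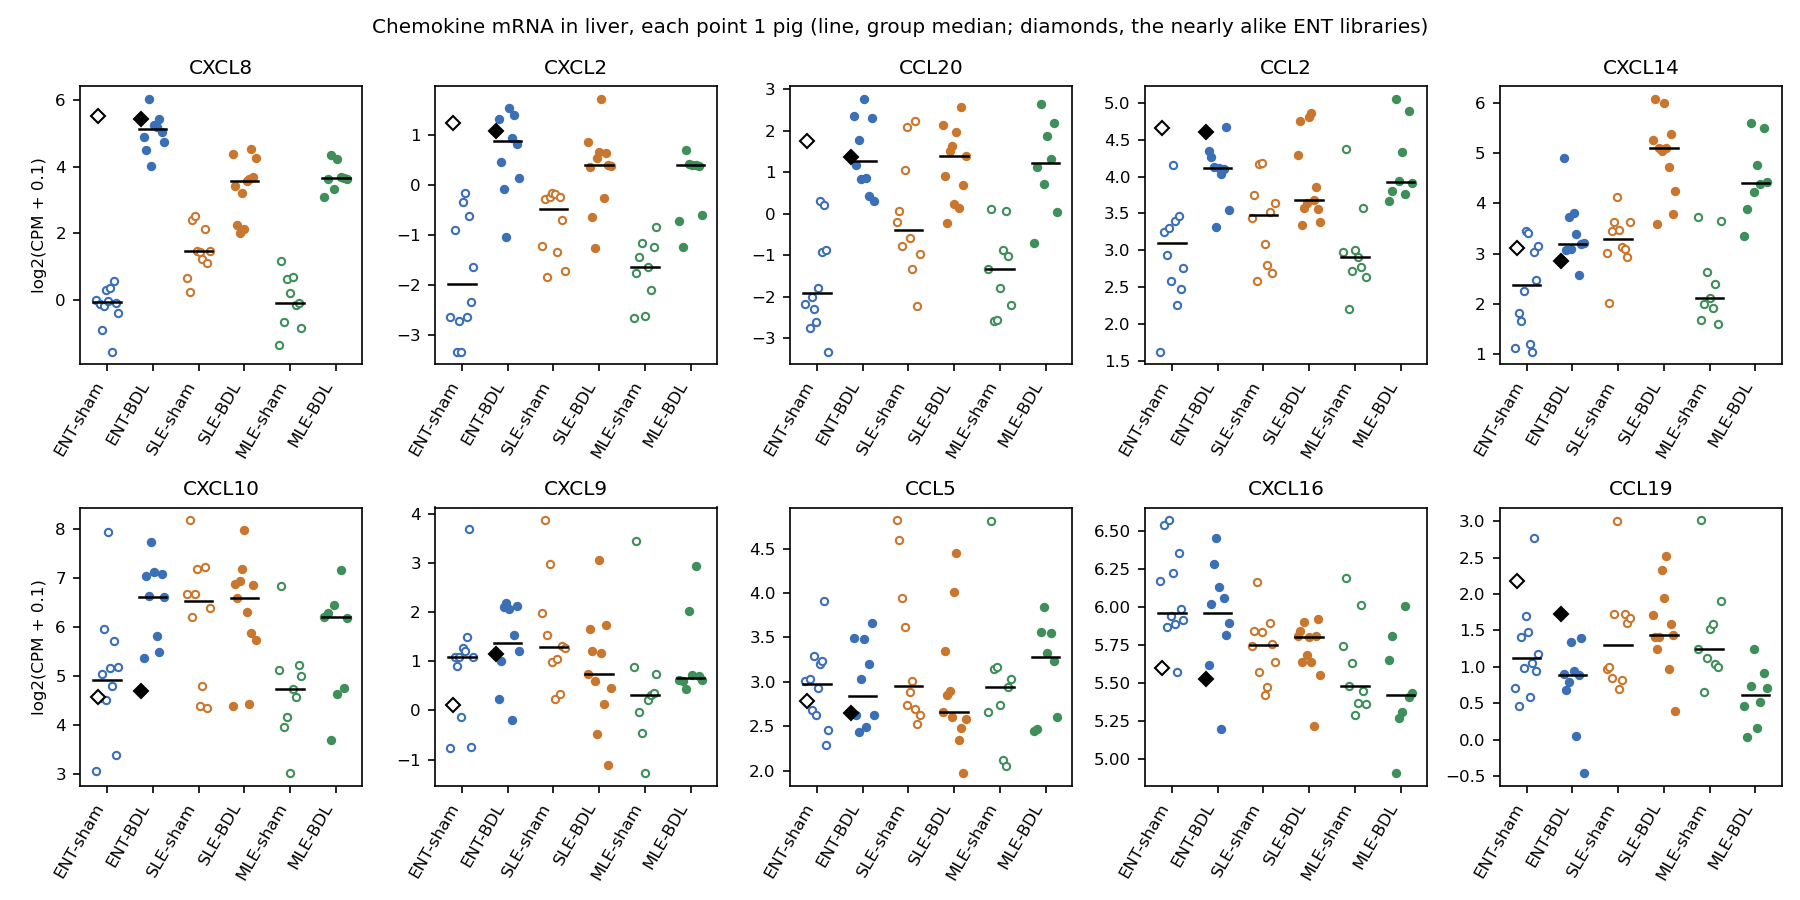
Level of the 10 chemokines in each of 60 pigs as log2(CPM + 0.1), by group (open, sham; filled, BDL; blue ENT, orange SLE, green MLE; lines, group medians). The diamonds are ENT-sham replicate 2 and ENT-BDL replicate 1, which lie side by side for CXCL8 at 45.3 and 42.5 CPM while the other 11 ENT-sham pigs are at 1.39 CPM or less.

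The interferon-induced ligands of CXCR3 overlapped widely between groups. CXCL10 ran from 8.25 through 30.1 to 244 CPM in ENT-sham pigs and from 25.5 through 98.2 to 215 CPM in ENT-BDL pigs. In SLE pigs it ran from 20.3 through 92.4 to 291 CPM after sham surgery and from 20.8 through 96.6 to 255 CPM after BDL, and in MLE pigs from 7.96 through 26.3 to 114 CPM and from 12.7 through 73.2 to 143 CPM. The log2 fold changes were 1.03 in ENT (SE 0.49, adjusted p = 0.138), -0.040 in SLE (SE 0.49, adjusted p = 0.980), and 0.92 in MLE (SE 0.55, adjusted p = 0.282). None passed. The ENT value was 1.08 without both matching libraries (adjusted p = 0.123). It became 1.70 (adjusted p = 0.00647) without ENT-sham replicate 7, and 1.24 (adjusted p = 0.0377) with the identifier block, and both were called.

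CXCL9 had medians of 2.01 CPM in ENT-sham and 2.49 in ENT-BDL, 2.34 in SLE-sham and 1.56 in SLE-BDL, and 1.15 in MLE-sham and 1.48 in MLE-BDL, with single pigs from 0.313 to 14.5 CPM. The log2 fold changes were 0.12 (SE 0.51), -0.78 (SE 0.52), and 0.23 (SE 0.59) in ENT, SLE, and MLE, with adjusted p of 0.914, 0.454, and 0.845. Single pigs moved these values, to 0.78 in ENT without ENT-sham replicate 10 and to 1.24 in MLE without MLE-sham replicate 2, but no fit that left out 1 pig passed (lowest adjusted p = 0.295 in ENT, 0.199 in SLE, and 0.141 in MLE). CCL5, a T cell and NK cell product, had medians between 6.24 CPM in SLE-BDL and 9.61 CPM in MLE-BDL, and log2 fold changes of 0.026 (SE 0.29), -0.47 (SE 0.30), and 0.0080 (SE 0.33), with adjusted p of 0.967, 0.415, and 0.990. Without both matching libraries the ENT values were 0.066 for CXCL9 (adjusted p = 0.950) and 0.041 for CCL5 (adjusted p = 0.947). In SLE, 3 of 11 BDL pigs were below every sham pig for CXCL9 and 3 of 11 for CCL5.

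CXCL16, which is made as a membrane protein that also takes up oxidized lipoprotein, was the steadiest of the 10. Its level was 67.9 ± 15.7 CPM in ENT-sham and 61.4 ± 15.3 in ENT-BDL (SD, n = 12 and 10), 53.7 ± 8.46 in SLE-sham and 52.8 ± 6.78 in SLE-BDL (n = 10 and 11), and 50.0 ± 11.7 in MLE-sham and 45.5 ± 10.9 in MLE-BDL (n = 9 and 8). The BDL log2 fold changes were -0.14 (SE 0.13), -0.025 (SE 0.13), and -0.14 (SE 0.14), with adjusted p of 0.473, 0.949, and 0.582, and the ENT value was -0.15 without both matching libraries (adjusted p = 0.457).

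CCL19, which guides CCR7-bearing T cells and dendritic cells, was the only one of the 10 called lower after BDL, and only in MLE pigs. It ran from 1.48 through 2.28 to 7.98 CPM in MLE-sham and from 0.925 through 1.44 to 2.27 CPM in MLE-BDL, so that all 8 BDL pigs lay below the sham median and 4 below every sham pig. The log2 fold change was -1.03 (SE 0.33, adjusted p = 0.0259). The call was lost in 6 of 17 fits that left out 1 pig (MLE-BDL replicates 1, 2, 5, or 6, or MLE-sham replicates 2 or 9), with log2 fold changes from -1.14 to -0.69 and adjusted p up to 0.138, and with the identifier block (-0.99, adjusted p = 0.0271), where the fold change was under 2. In ENT it was -0.53 (SE 0.29, adjusted p = 0.214), or -0.57 without both matching libraries (adjusted p = 0.182), and in SLE 0.070 (SE 0.29, adjusted p = 0.936), and the difference between the MLE and SLE responses did not pass (-1.10, SE 0.44, adjusted p = 0.366).

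Among BDL pigs, diet separated CXCL14 and CXCL8 in opposite directions. CXCL14 was higher in SLE-BDL than in ENT-BDL by a log2 fold change of 1.59 (SE 0.33, adjusted p = 0.000323), or 1.54 without both matching libraries (adjusted p = 0.000899). It was higher in MLE-BDL than in ENT-BDL by 1.15 (SE 0.35, adjusted p = 0.0153), or 1.10 without both matching libraries (adjusted p = 0.0258), and the call was lost at 0.98 without MLE-BDL replicate 3 (adjusted p = 0.0535). CXCL8 was lower in SLE-BDL than in ENT-BDL by a log2 fold change of -1.55 (SE 0.52, adjusted p = 0.0277), which was -1.51 without both matching libraries (adjusted p = 3.99e-05) and fell short at -1.41 (adjusted p = 0.0526) without ENT-BDL replicate 4. In MLE-BDL it was -1.39 against ENT-BDL (SE 0.57, adjusted p = 0.0857), and -1.34 without both matching libraries (adjusted p = 0.000748). So 2 of 10 were called for SLE-BDL against ENT-BDL, with 3.12% of all genes called, and 1 of 10 for MLE-BDL against ENT-BDL, with 3.2% called. At any fold change CXCL16 also passed in the latter, at -0.43 (SE 0.14, adjusted p = 0.0246), where 16.5% of all genes passed. It was -0.46 without both matching libraries (adjusted p = 0.0149). With the identifier block it no longer passed (-0.32, adjusted p = 0.147), nor without MLE-BDL replicate 3 (-0.35, adjusted p = 0.0850). These comparisons share the ENT-BDL pigs.

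MLE pigs carried 4 of the 8 numbers in the pig identifiers, and most SLE-BDL and ENT-BDL pigs carried others. Diet and identifier number, whose meaning is not given, are thus partly mixed in the diet comparisons. Between the lipid emulsions, edgeR called 0 of 10 for MLE-BDL against SLE-BDL (0.395% of all genes called). CCL19 had an unadjusted p under 0.05 there, at a log2 fold change of -1.05 (SE 0.32, adjusted p = 0.0910), and DESeq2 called it alone (adjusted p = 0.0495). For CXCL8 the log2 difference was 0.15 (SE 0.55, adjusted p = 0.944), or -0.19 with the identifier block (adjusted p = 0.948), and for CXCL14 -0.44 (SE 0.34, adjusted p = 0.622).

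Among sham pigs, the CXCL8 comparisons turned on ENT-sham replicate 2. MLE-sham was lower than ENT-sham by a log2 fold change of -2.21 (SE 0.65, adjusted p = 0.0102), the 1 call among the 10 (3.71% of all genes called), but the value was 0.25 without replicate 2 (adjusted p = 0.678). SLE-sham against ENT-sham gave -0.65 (SE 0.55, adjusted p = 0.413) with it and 1.82 without it (adjusted p = 1.49e-05), and 1.05 with the identifier block (adjusted p = 0.178). With all pigs, edgeR and DESeq2 called 0 of 10 for SLE-sham against ENT-sham (5.22% of all genes called). An unadjusted p under 0.05 was reached by 4, but the share of all genes at that level was not counted. With the identifier block CXCL10 was called higher in SLE-sham (1.32, adjusted p = 0.0466), with 5.32% of all genes called. With all pigs, both methods called 0 of 10 for MLE-sham against SLE-sham (0.45% called). Here 5 had an unadjusted p under 0.05, again without a count of all genes at that level. Without both matching libraries, CXCL8 was lower in MLE-sham than in SLE-sham by -1.57 (adjusted p = 0.00766), and CCL20 was higher in SLE-sham than in ENT-sham by 2.03 (adjusted p = 0.00416). CXCL16 was lower than in ENT-sham at any fold change in SLE-sham (-0.34, SE 0.13, adjusted p = 0.0378) and in MLE-sham (-0.44, SE 0.13, adjusted p = 0.0104), where 27.5% and 21.1% of all genes passed. Without both matching libraries these were -0.38 (adjusted p = 0.0173) and -0.49 (adjusted p = 0.00399). With the identifier block neither passed (-0.24, adjusted p = 0.153, and -0.31, adjusted p = 0.131), and leaving out ENT-sham replicate 5 took the SLE-sham value to -0.28 (adjusted p = 0.0883).

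The interaction of diet and surgery asks whether the BDL response itself differed between diets. With all pigs, edgeR and DESeq2 called 0 of 10 genes in each of the 3 interactions, against 2.28% of all genes for SLE with ENT, 0.0802% for MLE with ENT, and 0.278% for MLE with SLE. An unadjusted p under 0.05 was reached by 0, 1 (CXCL14), and 2 (CCL19 and CCL20) of them, and the share of all genes at that level was not counted. For CXCL8 the BDL response in SLE was -0.89 below that in ENT (SE 0.75, adjusted p = 0.641), but -3.36 below it without ENT-sham replicate 2 (adjusted p = 1.65e-07) and -3.32 without both matching libraries (adjusted p = 3.98e-07). With the identifier block it was -2.26 (adjusted p = 0.0605). The MLE response against the ENT response turned direction, from 0.82 (SE 0.85, adjusted p = 0.845) with all pigs to -1.63 without ENT-sham replicate 2 (adjusted p = 0.123).

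**Figure D4:**
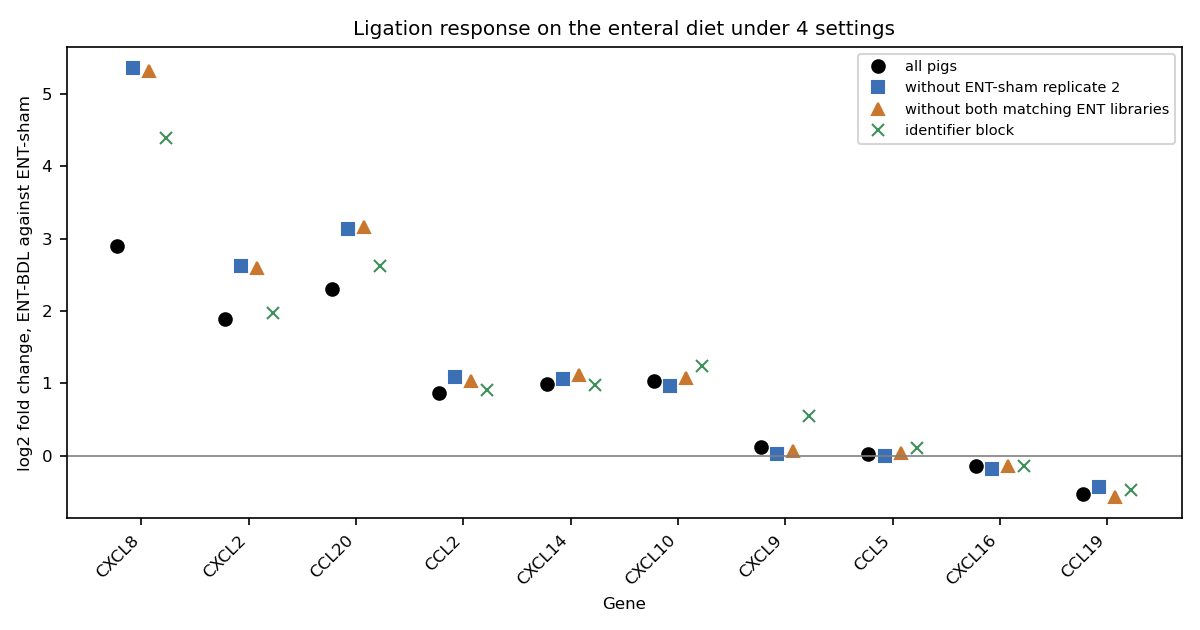
Log2 fold change of ENT-BDL against ENT-sham for each chemokine with all pigs, without ENT-sham replicate 2, without both matching libraries, and with the identifier number as a block. CXCL8 moves from 2.89 to 5.36 and CCL20 from 2.31 to 3.13 when ENT-sham replicate 2 is left out, while CXCL16 stays between -0.14 and -0.19.

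Receptors of chemokines were called singly or in pairs after BDL. Of 17 tested receptors, 2 were called higher in ENT (CXCR4, log2 fold change 1.15, adjusted p = 5.56e-05, and CCR4, 1.06, adjusted p = 0.0396), 1 in SLE (the scavenging receptor ACKR3, 1.24, adjusted p = 0.00769), and 1 in MLE (CCR2, 1.38, adjusted p = 8.63e-05), where CX3CR1 was called lower (-1.19, adjusted p = 0.0159). The shares of all genes called in these comparisons were 3.41%, 1.47%, and 3.73%. CXCR4 (1.38, adjusted p = 1.95e-07) and CCR4 (1.34, adjusted p = 0.00869) were also the receptors called in ENT without both matching libraries. The receptor of CCL2, CCR2, thus passed both thresholds in MLE, with medians of 1.76 CPM in MLE-sham and 5.25 CPM in MLE-BDL. In ENT it passed only without the fold threshold (0.80, adjusted p = 0.00796, and 0.93, adjusted p = 0.00117, without both matching libraries), and in SLE the log2 fold change was 0.19 (adjusted p = 0.721). CXCR2, shared by CXCL8 and CXCL2, had medians of 3.597 to 4.62 CPM over the 6 groups and log2 fold changes of -0.27, -0.14, and -0.059 (adjusted p = 0.483, 0.817, and 0.918). A separate gene model that the annotation also describes as this receptor, LOC100515345, had 0.70, 0.55, and 0.97 (adjusted p = 0.171, 0.446, and 0.0972). In ENT, leaving out both matching libraries gave -0.32 for CXCR2 (adjusted p = 0.396) and 0.88 for LOC100515345 (adjusted p = 0.0805). CCR6, the receptor of CCL20, was at 0.463 CPM or less in every pig and was not tested.

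Of 14 other chemokine ligands that were tested, 1 was called higher in ENT and MLE pigs (adjusted p = 0.0025 and 0.00531), where 3.41% and 3.73% of all genes were called. It was CCL11, an eosinophil attractant, which is named here after its values were seen, and in SLE it did not pass (adjusted p = 0.0600). CX3CL1 was called with it in ENT without both matching libraries (adjusted p of CCL11, 0.00441). The median of CCL11 was 0.0261 CPM in ENT-sham and 0.385 in ENT-BDL, 0.208 and 1.197 in SLE, and 0 and 0.898 in MLE, and 11 of 12 ENT-sham pigs and 8 of 9 MLE-sham pigs had 3 counts or fewer. The median log2 fold change of these 14 ligands was -0.35 in ENT, -0.17 in SLE, and -0.43 in MLE. Among 25 tested inducers and NF-kappaB regulators, JUN and RELB were called higher in ENT (1.21 and 1.08, adjusted p = 5.43e-05 and 0.000322), and JUN alone in MLE (1.36, adjusted p = 8.54e-05). The ENT values were 1.40 and 1.25 without both matching libraries (adjusted p = 1.51e-06 and 2.34e-05). In SLE JUN passed only without the fold threshold (0.80, adjusted p = 0.0272). IFNG and IL17A had a median count of 0 over the pigs.

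Markers of several cell types also differed between sham and BDL livers. The summed level of 8 cholangiocyte markers had a median of 147 CPM in ENT-sham (90.5 to 425) and 323 in ENT-BDL (249 to 426), 324 in SLE-sham (237 to 401) and 390 in SLE-BDL (282 to 467), and 226 in MLE-sham (199 to 272) and 372 in MLE-BDL (270 to 476). Of these 8 markers 4 were called higher in ENT, 1 in SLE, and 5 in MLE, beside 3.41%, 1.47%, and 3.73% of all genes, and among them was KRT7 on all 3 diets (1.85, 1.45, and 1.82, adjusted p = 7.03e-05, 0.00994, and 0.000793). In ENT 4 were also called without both matching libraries, with KRT7 at 2.66 (adjusted p = 9.97e-13). None of the lists' cholangiocyte, neutrophil, T and NK cell, or macrophage markers in the table had a median count of 0. ENT-sham replicate 2 had a cholangiocyte sum of 425 CPM, against 90.5 to 220 in the other 11 ENT-sham pigs, and a hepatocyte sum of 68936 CPM, against 109056 to 146289.

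The summed level of 9 stellate cell and fibroblast markers had a median of 1449 CPM in ENT-sham (1208 to 4128) and 2780 in ENT-BDL (1393 to 4128), 2062 in SLE-sham (1299 to 3847) and 2382 in SLE-BDL (1471 to 7967), and 1840 in MLE-sham (1231 to 3147) and 4014 in MLE-BDL (2209 to 5852). The sham and BDL groups overlapped on every diet. None of the 9 was called in ENT, while RGS5 was called higher in SLE (1.14, adjusted p = 0.0231) and COL1A1 in MLE (1.54, adjusted p = 0.00287), where 3.41%, 1.47%, and 3.73% of all genes were called. At any fold change 2 were higher and 1 lower in ENT, 2 higher in SLE, and 4 higher and 1 lower in MLE, beside 17.4%, 4.54%, and 14.4% of all genes. The ENT medians were 1431 and 2679 CPM without both matching libraries. The hepatocyte sum had a median of 121673 CPM in ENT-sham and 95353 in ENT-BDL (68942 to 130283), 107830 in SLE-sham (98364 to 129330) and 111391 in SLE-BDL (74246 to 148626), and 116521 in MLE-sham (89770 to 146724) and 83220 in MLE-BDL (70159 to 92433). This sum took 1 gene model per marker, whereas 9 gene models of these markers were tested. Of these 9, 4 were lower and 1 higher at any fold change in ENT (17.4% of all genes passed in either direction), 0 either way in SLE (4.54%), and 6 lower and 0 higher in MLE (14.4%), and none of the 9 was called on any diet.

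Neutrophil markers, of which 8 of 10 were in the table, summed to a median of 12.7 CPM in ENT-sham (6.41 to 25.7) and 17.6 in ENT-BDL (9.37 to 38.4), 14.8 in SLE-sham (6.34 to 33.8) and 24.2 in SLE-BDL (14.0 to 62.4), and 10.01 in MLE-sham (3.76 to 19.2) and 18.9 in MLE-BDL (8.66 to 40.4). The groups overlapped on every diet. Of the 8, none was called in ENT, 1 in SLE, and 1 in MLE, beside 3.41%, 1.47%, and 3.73% of all genes. MPO was called in SLE (1.61, adjusted p = 0.0134) and did not pass in ENT (-0.044, adjusted p = 0.960) or MLE (0.92, adjusted p = 0.179). CSF3R was called in MLE (1.76, adjusted p = 0.000197) and did not pass in SLE (0.60, adjusted p = 0.269), whereas in ENT it passed only without the fold threshold (0.94, adjusted p = 0.02), and without both matching libraries it was called (1.09, adjusted p = 0.00652). The sum of 12 T and NK cell markers had medians of 44.6 and 45.5 CPM in ENT-sham and ENT-BDL, 48.3 and 32.5 in the SLE groups, and 43.4 and 39.0 in the MLE groups. For the 13 macrophage and Kupffer cell markers the summed medians were 2838 and 2117, 2298 and 1981, and 2334 and 1719 CPM in the same order. Of these 13, 1 in ENT, 3 in SLE, and 1 in MLE had a log2 fold change above 0. At any fold change 3 were lower and 1 higher in ENT, 1 lower and 1 higher in SLE, and 4 lower and 1 higher in MLE, beside 17.4%, 4.54%, and 14.4% of all genes. CLEC4F, a Kupffer cell lectin, was called lower in SLE (-1.13, adjusted p = 0.0401), and did not pass in ENT (-0.84, adjusted p = 0.0725) or MLE (-0.90, adjusted p = 0.102). In contrast, the scavenger receptor MARCO was called higher on all 3 diets (1.48, 1.00, and 1.11, adjusted p = 1.11e-05, 0.0108, and 0.00329), and at 1.65 in ENT without both matching libraries (adjusted p = 8.42e-07). The part of these cell types in the chemokine results was not tested.

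**Figure D5:**
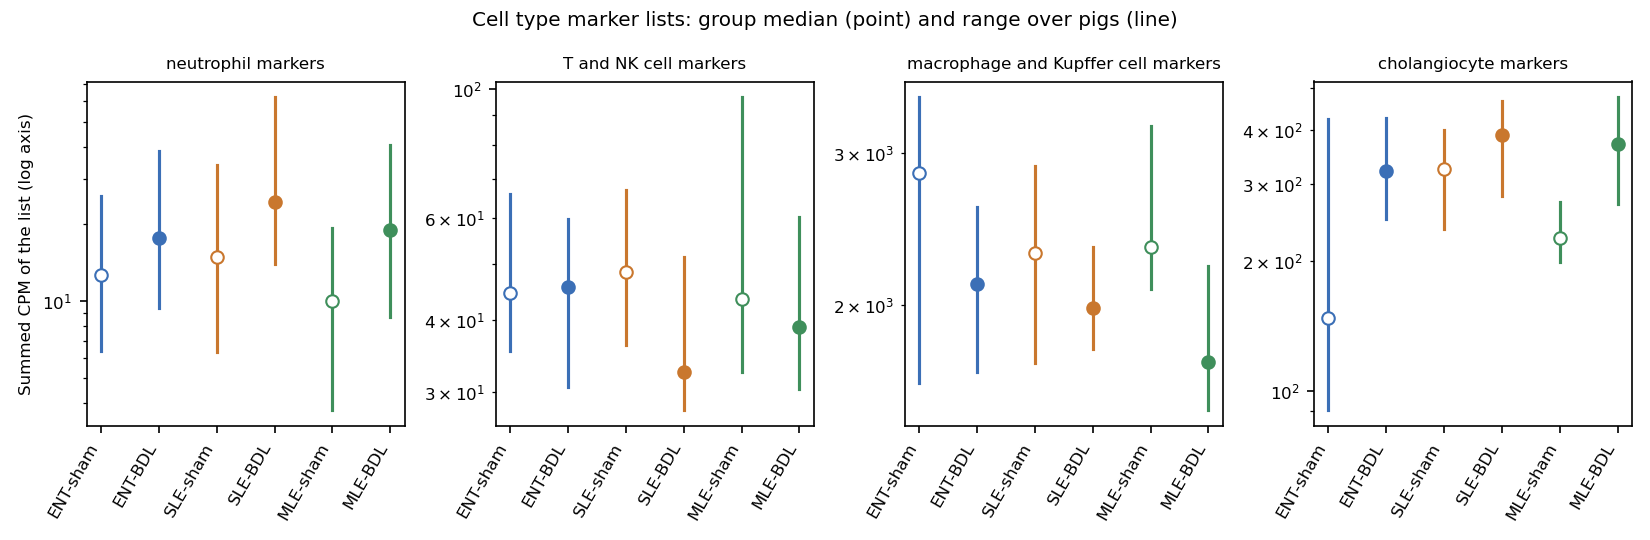
Summed CPM of 4 cell type marker lists by group on a log axis (points, medians; lines, lowest to highest pig; open, sham; filled, BDL). The cholangiocyte sum is 199 to 272 CPM in MLE-sham and 270 to 476 CPM in MLE-BDL, and the long line of ENT-sham up to 425 CPM ends at replicate 2.

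Within groups, several of the chemokines varied together between pigs. After subtraction of the group means of log2 CPM, 45 pairs were tested over 60 pigs with 100000 permutations within groups (two-sided), and 15 had adjusted p under 0.05 by both Pearson and Spearman correlation. The highest was CXCL9 with CCL5 (r = 0.644, rho = 0.559, permutation adjusted p = 0.0003 and 0.000337), and it was 0.554 without the 2 pigs farthest from the median of CXCL9. CXCL9 with CXCL10 had r = 0.582 and rho = 0.539 (permutation adjusted p = 0.0003 and 0.000337), and 0.554 without the 2 farthest pigs. CXCL2 with CCL2 had r = 0.604 and rho = 0.570 (permutation adjusted p = 0.0003 and 0.000337), and 0.514 without them.

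CXCL8 correlated with CXCL2 at r = 0.530 and rho = 0.360 (permutation adjusted p = 0.0021 and 0.0251) and with CCL20 at r = 0.517 and rho = 0.454 (permutation adjusted p = 0.00122 and 0.00345). Without the 2 pigs farthest from the CXCL8 median these were 0.328 and 0.441, and without both matching libraries 0.336 and 0.385. With CXCL9, CXCL10, and CCL5 its r was -0.122, -0.200, and -0.0719, and none of these passed (permutation adjusted p = 0.504, 0.252, and 0.637 for r). Pairs that share a gene are not independent.

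Over all 60 pigs, group differences included, the genes with a mean log2 CPM of at least 2 most like CXCL8 by Spearman correlation were MMP7 (0.927), TUBA1A (0.882), and NEDD9 (0.878). After removal of the group means the same values were 0.503, 0.668, and 0.408. CXCL2 was closest to GADD45B (0.812), CXCL8 (0.810), and VCAN (0.800), which became 0.543, 0.360, and 0.578. CCL2 was closest to GADD45B (0.805), NFKB2 (0.794), and TIMP1 (0.783), which became 0.553, 0.631, and 0.674, and CCL20 to ELF3 (0.811), BCAS4 (0.808), and IFNGR2 (0.807), which became 0.621, 0.527, and 0.585. CXCL14 was closest to TNFRSF12A (0.764), ANXA2 (0.760), and UNC5CL (0.760), which became 0.346, 0.401, and 0.221. CXCL9 was closest to PSMB8 (0.745), SLA-8 (0.709), and B2M (0.697), which became 0.695, 0.683, and 0.649. CXCL10 was closest to SNX10 (0.780), PSMA6 (0.706), and STEAP4 (0.689), which became 0.707, 0.543, and 0.511. The likeness over all pigs was lower for CXCL16 (CTSS, 0.682), CCL5 (GIMAP1, 0.641), and CCL19 (NR1H2, 0.584), and after removal of the group means these were 0.506, 0.589, and 0.518.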

How the data were processed

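RNA-Seq was made from liver of 60 pigs. The authors trimmed the paired-end reads with fastp, mapped them with HISAT2 to Sscrofa11.1, and deposited featureCounts read counts per gene without normalization. Versions in the submitters' processing notes are HISAT2 2.0.5, StringTie 1.3.3, and featureCounts 1.5.0-p3. The strand setting is not given in the sources used here. Gene lengths are those of the deposited table, and chromosome names were taken from RefSeq by gene ID.

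The 24 features without a gene name, 0.00842% to 0.0407% of the counts, were left out. Genes were filtered with filterByExpr, scaled by TMM, and tested in edgeR 4.0.16 (R 4.3.3; glmQLFit with robust = TRUE, glmQLFTest) with 6 group means and Benjamini-Hochberg adjustment. CPM used the TMM-scaled library size, and log2 CPM a prior count of 2. The SE is the log2 fold change over the root of F. Correlations and plots used Python 3.11.15, numpy 2.4.6, scipy 1.17.1, pandas 2.3.3, and matplotlib 3.10.9. The floor was set at 3 counts per library. DESeq2 1.42.0, RLE scaling, other filters, fits of the groups compared only, blocks, and left-out pigs were alternatives. The listed genes and the order of the groups without both matching ENT libraries were added after the data were seen.

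The members and lists were chosen with earlier results of these data known. All 10 members are named. Of each list, up to 4 genes called with BDL at a mean log2 CPM of at least 0, those with the largest changes, were nameable, along with the members' receptors. MPO, CCR4, CCL11, and CX3CL1 were added after their values were seen. Replicate numbers did not pair the pigs: over 137 pairs with the same number, residual correlations ran from -0.232 to 0.381 (median -0.017), and 25 exceeded 0.1. On simulated data of 15991 genes, 200 of 200 genes with 4-fold changes in the ENT comparison were found with 1 false call. In the interaction of SLE with ENT, 198 of 200 were found with 9 false calls. Whether a 4-fold change in each of the 10 chemokines would be found was not tested. Their SE in this interaction ran from 0.18 for CXCL16 to 0.76 for CCL20 with all pigs. Each library was taken as 1 pig, and no sample was left unassigned.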

Additional observations from a re-analysis of the deposited data

Results flagged for a closer look

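Over 40 combinations of a chemokine and a group of 10 or fewer pigs, 4 held a pig set far apart from the others of its group (Dixon's test at 95%), and chance alone gives about 1 in 20 such groups. MLE-sham replicate 2 was the highest of its group for CXCL9 (log2 CPM 3.44, next 0.89) and for CCL5 (4.81, next 3.17). ENT-BDL replicate 2 was the highest of its group for CXCL14 (log2 CPM 4.91, next 3.81). SLE-sham replicate 5 was the highest of its group for CCL19 (log2 CPM 3.01, next 1.73). Groups of more than 10 pigs, here ENT-sham and SLE-BDL, were not tested in this way, so ENT-sham replicate 2 was not covered.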

How the results depend on the processing

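Over 707 alternative values of single genes, for the BDL responses, the interactions, and the diet comparisons whose values are printed, 644 kept direction and side of the threshold, 21 newly passed, 10 no longer passed, and 32 changed sign. Of 46 other values in diet comparisons, the identifier block turned 14, leaving out both matching libraries 3, the replicate block 2, no filter, the minimum of 10 counts (29 values), and the groups compared only (41 values) 1 each, and DESeq2 and RLE scaling 0, and none of these passed before or after. Without both matching ENT libraries, 5 genes were called in ENT (3 with all pigs), 3 in SLE (2), 2 for MLE-BDL against ENT-BDL (1), 2 for SLE-sham against ENT-sham (0), 0 for MLE-sham against ENT-sham (1), 1 for MLE-sham against SLE-sham (0), and 1 for the interaction of SLE with ENT (0). The shares of all genes called in these fits were 4.48%, 1.65%, 3.4%, 5.76%, 4.16%, 0.558%, and 4.5%. With all pigs, at any fold change the counts were 5 in ENT, 2 for MLE-BDL against ENT-BDL, 1 for SLE-sham against ENT-sham, and 2 for MLE-sham against ENT-sham. With at least 10 counts in every pig, CXCL8, CXCL2, CXCL9, and CCL20 were not tested, and the counts were 1 in ENT, 1 in SLE, 3 in MLE, 1 for SLE-BDL against ENT-BDL, and 0 for MLE-sham against ENT-sham (1.79%, 0.728%, 2.1%, 1.6%, and 2% of all genes). With the groups compared only, 2 were called for MLE-BDL against ENT-BDL, 0 for MLE-sham against ENT-sham, and 1 for MLE-sham against SLE-sham (2.95%, 3.27%, and 0.474%), and CXCL2 in MLE was not tested. DESeq2 called 1 for MLE-BDL against SLE-BDL (0.672%).

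The replicate numbers do not pair the pigs. With them as a replicate block, 4 genes were called in ENT, 2 in SLE, 5 in MLE, and 0 for MLE-sham against ENT-sham (3.31%, 1.36%, 3.79%, and 3.59% of all genes), where CXCL8 was -1.26, and 0 in each interaction. CCL19 in MLE was not called (-0.90, adjusted p = 0.0619). CCL5 in ENT became -0.11, CXCL10 in SLE 0.027, and the interactions of MLE with ENT -0.14 for CXCL8 and 0.24 for CCL5, and CXCL8 in SLE-sham against ENT-sham became 0.57. The identifier block, on 8 numbers of which MLE pigs carry 4, called 1 gene (CXCL10) for SLE-sham against ENT-sham and 0 for MLE-sham against ENT-sham, and turned CXCL16 in the interactions of SLE with ENT (-0.033), MLE with ENT (-0.0061), and MLE with SLE (0.027), and CXCL8 (-0.71) and CXCL2 (-0.018) in that of MLE with ENT, and CXCL8 in SLE-sham against ENT-sham (1.05) and in MLE-BDL against SLE-BDL (-0.19). The causes were not tested.

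Without both matching libraries, CXCL8 in MLE-sham against ENT-sham became 0.25 and in SLE-sham against ENT-sham 1.82, and the interactions of MLE with ENT became -1.59 for CXCL8, -0.53 for CXCL2, and -0.38 for CCL20. Of 17 fits that left out 1 MLE pig, the BDL call of CCL2 was lost in 1 and that of CCL19 in 6. The shares of all genes called are not given for the counts that follow. Leaving out each pig in turn gave 3 to 5 genes in ENT, 1 to 2 in SLE, 1 to 2 for SLE-BDL against ENT-BDL, 0 to 1 for MLE-BDL against ENT-BDL, 0 to 2 for SLE-sham against ENT-sham, 0 to 1 for both MLE-sham comparisons, and 0 to 1 for the interaction of SLE with ENT. It turned log2 fold changes of CCL5 in ENT (-0.061 to 0.15) and MLE (-0.095 to 0.44), CXCL10 (-0.28 to 0.29), CXCL16 (-0.058 to 0.031), and CCL19 (-0.055 to 0.37) in SLE, CXCL9 in MLE (-0.23 to 1.24), and CXCL8 in MLE-sham against ENT-sham (-2.43 to 0.25) and SLE-sham against ENT-sham (-0.80 to 1.82). In the interaction of MLE with ENT it turned CXCL8 (-1.63 to 1.04), CXCL2 (-0.56 to 0.37), CXCL9 (-0.52 to 1.12), CXCL10 (-0.78 to 0.38), CXCL16 (-0.066 to 0.094), CCL5 (-0.12 to 0.41), and CCL20 (-0.35 to 0.76). CXCL2 and CCL20 rest on few reads in sham pigs, with 3 counts or fewer in 7 of 12 ENT-sham pigs for each.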
